A study of Homo sapiens with 16 samples.

Results

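Tissue factor, its inhibitors, thrombomodulin, the fibrinogen chains, complement C3 and alpha-1-antitrypsin were followed in lung cancer cells given hepatocyte growth factor (HGF). The 9 genes (F3, TFPI, TFPI2, THBD, FGA, FGB, FGG, C3 and SERPINA1) were taken by their symbols from the 42351 genes of the count table, in all 8 conditions. All 9 were among the 15067 genes that passed the filter on low counts. FGA, FGB and FGG passed it through 1 line alone, because they had 0 counts in the other. SERPINA1 also passed it through 1 line alone, with 1 to 6 counts per library in the other.

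Polyadenylated RNA was sequenced from 2 lung cancer lines after 0, 3, 6 or 12 h of HGF, the ligand of the receptor tyrosine kinase MET, with 2 replicates per condition and 16 libraries in all. A549, a lung adenocarcinoma line, carried wild-type (wt) MET, and NCI-H596, an adenosquamous line, carried MET∆14, the receptor without exon 14 and its juxtamembrane domain. Serum was withdrawn before HGF in every condition, the untreated ones included, for 12 h by the labels and for longer by the study's methods. The labels name A549, whereas the text of the study abbreviates another lung adenocarcinoma line, EKVX, as its wt MET cells. Each MET status was thus 1 cell line, so that MET status and cell line cannot be told apart. The only untreated time was 0 h, so that HGF and the passing of time without serum cannot be told apart either.

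Tissue factor is the membrane receptor that starts coagulation by binding factor VIIa. Thrombin, formed at the end of the cascade, cuts fibrinogen, a hexamer of paired alpha, beta and gamma chains, into fibrin. Fibrinogen, C3 and alpha-1-antitrypsin are made mainly by hepatocytes and belong to the acute-phase proteins, but epithelial cells and carcinomas can also make them. Tissue factor is known for its high level on many carcinoma cells and for its induction by growth factors.

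Total counts per library ranged from 13226488 to 21970052 in wt MET cells and from 10158590 to 23909304 in MET∆14 cells. Replicates differed by more than sampling noise in every condition. Chi-square per degree of freedom between replicates was 34.1 in MET∆14 cells at 12 h, 9.80 in wt MET cells at 0 h and 2.75 to 4.48 in the other conditions. The pair of MET∆14 cells at 12 h thus stood furthest apart, and next to it the 0 h pair that all wt MET comparisons with 0 h rest on. Values at 12 h in MET∆14 cells are therefore also given without each of its libraries. MET itself was counted at 1240 to 1512 CPM (counts scaled to a common effective library size) as the mean of a condition in wt MET cells, and at 369.9 to 421 CPM in MET∆14 cells. Of 5 epithelial markers, 4 were over 1 CPM in every wt MET library (EPCAM was not) and 5 of 5 in every MET∆14 library. Of 5 squamous markers, 4 were over 1 CPM in every MET∆14 library (SOX2 was not) and 0 of 5 in wt MET cells. Alveolar type 2 markers, among them the surfactant proteins, did not pass 1 CPM in every library of either line. The 5 hepatocyte markers summed to 0.740 to 1.37 CPM in wt MET cells, with 4 of them at or under 3 counts in every library, and to at most 0.326 CPM in MET∆14 cells, with all 5 so. Endothelial markers summed to at most 1.99 CPM in any library. The 4 blood markers summed to 0.0668 to 0.506 CPM in wt MET cells and to 6.79 to 22.2 CPM in MET∆14 cells, where CD14 alone passed 1 CPM. Fibroblast markers summed to 11.4 to 19.4 CPM and to 187 to 346 CPM, with COL1A1 in both lines and COL3A1 in MET∆14 cells over 1 CPM. The part of these markers in the results below was not tested.

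F3 rose with HGF in both lines and more in MET∆14 cells, where it was the most abundant of the 9 per kb of exon at every time. The inhibitor TFPI was lower in both lines at 3 h, in calls that were lost without some single libraries. At 6 and 12 h it fell further in MET∆14 cells. TFPI2 and THBD rose in MET∆14 cells at 3 h, while THBD fell in wt MET cells at that time. FGA, FGB and C3 fell in wt MET cells, and fibrinogen was not counted in any MET∆14 library.

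Each time was compared with 0 h of the same line, and a gene was called when the Benjamini-Hochberg adjusted p of edgeR's quasi-likelihood test, over all genes tested, was under 0.05. Of the 9 genes, 4 were called in wt MET cells at 3 h (17.4% of all genes tested), 1 higher (10.3% of all genes) and 3 lower (7.16%). At 6 h, 8 of 9 were called (34.2% of all genes), 1 higher (16.4%) and 7 lower (17.8%). At 12 h, 3 of 9 were called (35.1% of all genes), 0 higher (16.9%) and 3 lower (18.2%). Leaving out MET∆14 12 h replicate 1 or replicate 2 raised that count to 6. Without fibrinogen, 6 genes could be compared in MET∆14 cells, and 4 of 6 were called at 3 h (31.7% of all genes), 3 higher (15.5%) and 1 lower (16.1%). At 6 h, 5 of 6 were called (44.1% of all genes), 3 higher (21.6%) and 2 lower (22.5%). At 12 h, 6 of 6 were called (38.3% of all genes), 2 higher (18.3%) and 4 lower (20.1%). Of these calls, that of SERPINA1 was lost with DESeq2 (DESeq2 adjusted p = 0.192). It was also lost without either MET∆14 0 h library (-0.65 and -0.88) or MET∆14 12 h replicate 1 (-0.65). Over the 3 times together, 6 of 9 changed in wt MET cells (40.3% of all genes) and 5 of 6 in MET∆14 cells (54.1%). Of the 6 wt MET calls, TFPI was lost without wt MET 0 h replicate 2 (edgeR adjusted p = 0.193) or either wt MET 6 h library (adjusted p = 0.0580 and 0.0630), and FGA without wt MET 12 h replicate 1 (adjusted p = 0.0603). SERPINA1 was gained without that last library (adjusted p = 0.0472) or either MET∆14 12 h library (adjusted p = 0.0439 and 0.0446). With these few genes, chosen with earlier results of these data known, the counts describe the genes and are not a test of the group.

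Tests of the interaction of line and time called F3, TFPI2 and THBD at 3 h (3 of 6, against 17.4% of all genes). At 6 h it called these with TFPI and SERPINA1 (5 of 6, 30.2%), and at 12 h F3, TFPI, TFPI2, THBD and C3 (5 of 6, 24.0%). Over the 3 times together, 5 of 6 differed in response, the same genes as at 12 h (37.6% of all genes). With line and time fitted additively, 3 of the 6 genes counted in both lines had an effect of time, namely F3, TFPI and C3 (30.6% of all genes). FGA and FGB were called there too, but their counts came from wt MET cells alone. Before HGF, F3, TFPI, TFPI2, THBD and C3 all differed between the lines. Of all genes tested 80.2% did so too, so that a difference at 0 h was the rule for any gene. Fibrinogen passed the filter only through the line where it was counted, so that its difference at 0 h is given below as a bound without a test. SERPINA1 passed it only through MET∆14 cells, so that its 0 h counts are given without a test (63 and 70, against 5 and 6 in wt MET cells).

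**Figure D1:**
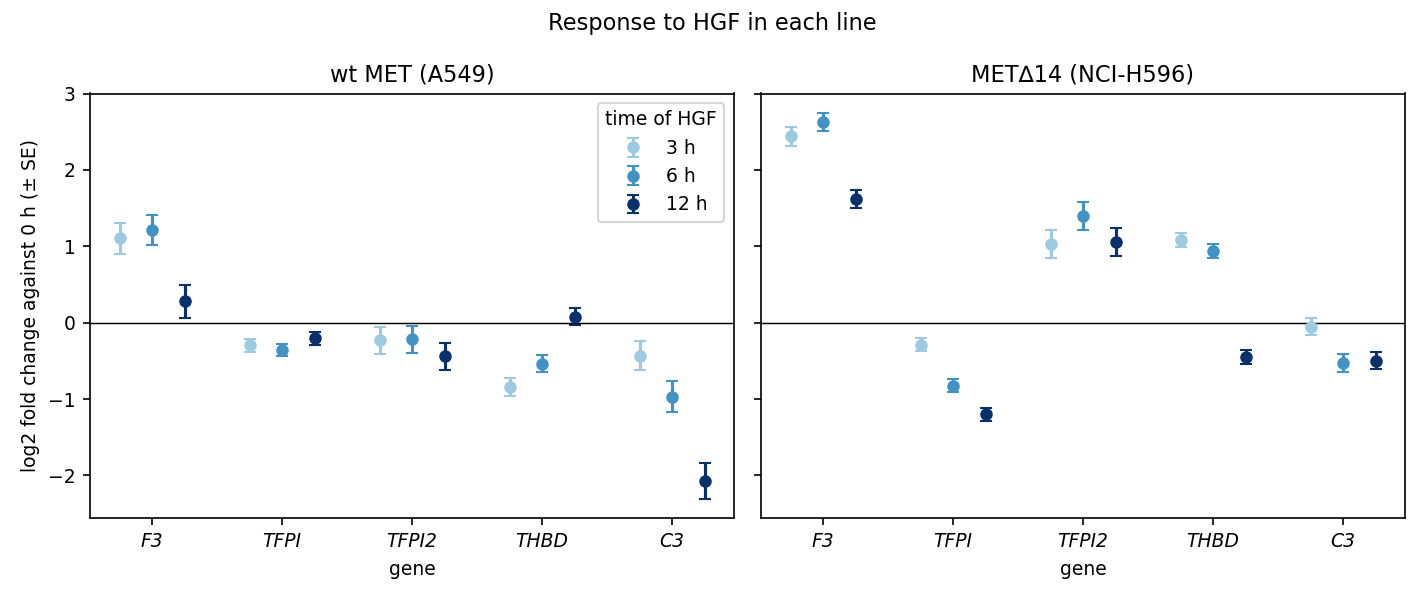
Response to HGF of F3, TFPI, TFPI2, THBD and C3, as the log2 fold change against 0 h of the same line (vertical axis) for each gene at 3, 6 and 12 h (light to dark points), with wt MET cells on the left and MET∆14 cells on the right. Bars are ± 1 standard error of the fit. F3 stood at 2.44, 2.63 and 1.62 in MET∆14 cells and at 1.10, 1.21 and 0.28 in wt MET cells, and THBD lay on opposite sides of 0 at 3 and 6 h.

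F3 (ENSG00000117525, chr1:94529173-94541759, minus strand, hg38) encodes tissue factor. Its 2 wt MET libraries at 0 h held 2.39 and 3.89 CPM, against 6.54 and 7.03 at 3 h, 7.26 and 7.34 at 6 h and 3.76 and 3.90 at 12 h. Both the 3 h and the 6 h libraries lay above both 0 h libraries, and those of 12 h overlapped with 0 h. These levels rest on 33 to 120 counts per library. F3 rose by 1.10 at 3 h (log2, SE 0.21, edgeR adjusted p = 0.0016) and by 1.21 at 6 h (SE 0.20, adjusted p = 0.000291). At 12 h the difference from 0 h was 0.28 (SE 0.22, adjusted p = 0.343), and F3 fell from 6 to 12 h by 0.93 log2 units (adjusted p = 0.0041). Without wt MET 0 h replicate 1, the library with the lowest F3, the 12 h value was -0.02.

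F3 stood in MET∆14 cells at 176 and 214 CPM before HGF and at 1100.0 and 1017 CPM at 3 h. It reached 1182 and 1235 CPM at 6 h and stood at 631 and 569.7 CPM at 12 h. No 2 conditions overlapped. The rise was 5.42-fold at 3 h (log2 2.44, SE 0.12, edgeR adjusted p = 4.64e-09), 6.19-fold at 6 h (log2 2.63, SE 0.12, adjusted p = 1.6e-09) and 3.07-fold at 12 h (log2 1.62, SE 0.12, adjusted p = 1.5e-07). From 6 to 12 h, F3 fell by 1.01 log2 units (adjusted p = 4.9e-05). The 12 h rise was 1.54 without MET∆14 12 h replicate 1 and 1.68 without replicate 2, and the last step was -1.09 and -0.94.

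The rise in MET∆14 cells exceeded that in wt MET cells by 1.33 log2 units at 3 h (SE 0.24, adjusted p = 0.00142), 1.42 at 6 h (SE 0.24, adjusted p = 0.000393) and 1.34 at 12 h (SE 0.25, adjusted p = 0.00129). The difference at each time was called in all 16 fits that left out 1 library, with values from 0.91 to 1.72 over the 3 times. The 12 h value was 1.26 without MET∆14 12 h replicate 1 and 1.40 without replicate 2. The test over the 3 times together was lost without wt MET 0 h replicate 2 (adjusted p = 0.0613). Before HGF, F3 was already 62.0-fold higher in MET∆14 cells (195 ± 26.9 CPM against 3.14 ± 1.06 CPM, mean ± SD). The lowest MET∆14 library lay above the highest wt MET library at any time.

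The 250 bases before the RefSeq start of F3 (GRCh38.p14, chr1:94541760-94542009, minus strand, 5′ to 3′) are shown because F3 had the largest rise of the 9, with matches to the AP-1 motif TGANTCA in capitals. AP-1, the dimer of FOS and JUN proteins, is induced by growth factor receptors. The window of TFPI2 (chr7:93890754-93891003, minus strand), the other gene whose rise lasted to 12 h in MET∆14 cells, is shown beside it with its match in capitals.
F3: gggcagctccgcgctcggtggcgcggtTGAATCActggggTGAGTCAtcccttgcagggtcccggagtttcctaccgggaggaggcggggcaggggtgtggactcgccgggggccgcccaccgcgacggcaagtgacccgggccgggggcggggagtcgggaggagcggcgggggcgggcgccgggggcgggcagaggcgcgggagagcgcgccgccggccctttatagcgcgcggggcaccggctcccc
TFPI2: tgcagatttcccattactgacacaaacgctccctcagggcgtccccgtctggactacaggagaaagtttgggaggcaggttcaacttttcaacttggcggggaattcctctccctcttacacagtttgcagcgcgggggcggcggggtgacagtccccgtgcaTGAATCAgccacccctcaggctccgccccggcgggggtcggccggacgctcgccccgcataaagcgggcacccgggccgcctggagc
The F3 window held 2 matches, at 223 to 217 and at 210 to 204 bases before the start, and the TFPI2 window 1 match, at 87 to 81 bases. The motif reads the same on both strands apart from its middle base. Of all 27326 promoter windows of 250 bases in the table, 6.57% held a match. The windows of FGA, FGB, FGG, TFPI and SERPINA1 held 0, with FGB and SERPINA1 searched only at the more upstream of 2 starts. THBD and C3 were not matched in the promoter table, so that 7 of the 9 genes were. A match is a description of the letters and not evidence of binding.

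TFPI (ENSG00000003436, chr2:187464230-187565760, minus strand) encodes tissue factor pathway inhibitor, which blocks the complex of tissue factor and factor VIIa together with factor Xa. In wt MET cells it was the most abundant of the 9 per kb of exon at every time, at 723 and 838 CPM at 0 h, 633 and 638 at 3 h, 612 and 606 at 6 h and 676 and 677 at 12 h. The 0 h replicates lay further apart than those of any later time, and both were above them. TFPI fell by 0.30 at 3 h log2 units (SE 0.083, edgeR adjusted p = 0.0228) and by 0.36 at 6 h (SE 0.083, adjusted p = 0.00391), and the 12 h difference of -0.21 did not pass (adjusted p = 0.0679).

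These small falls in wt MET cells leaned on single libraries. The 3 h call was lost in 11 of 16 fits that left out 1 library, with the value closest to 0, -0.16, without wt MET 0 h replicate 2. It was kept without wt MET 0 h replicate 1 and without any 1 of the MET∆14 libraries of 6 and 12 h. The 6 h call was lost without wt MET 0 h replicate 2 (-0.22) or wt MET 6 h replicate 2 (-0.33). The 12 h difference was called without wt MET 0 h replicate 1 (-0.31) or either MET∆14 12 h library (-0.20 and -0.21).

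MET∆14 cells held TFPI at 156 and 155 CPM before HGF, at 132 and 123 at 3 h, at 85.2 and 90.4 at 6 h and at 68.8 and 66.7 at 12 h. Each time lay below the one before it with no overlap. The falls from 0 h were -0.29 at 3 h (SE 0.085, edgeR adjusted p = 0.017), -0.82 at 6 h (SE 0.086, adjusted p = 2.35e-06) and -1.20 at 12 h (SE 0.088, adjusted p = 1.82e-07), which left 0.436 of the starting level at 12 h. The steps from 3 to 6 h (-0.53, adjusted p = 0.00145) and from 6 to 12 h (-0.37, adjusted p = 0.00905) also passed the test. The 3 h call was lost without any 1 of the 4 MET∆14 libraries of 0 and 3 h (-0.33 to -0.24). The step to 12 h was lost without MET∆14 6 h replicate 2 (-0.32). Without MET∆14 12 h replicate 1 or replicate 2, the 12 h fall was -1.22 or -1.19 and the step to 12 h -0.40 or -0.36.

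The lines' TFPI responses were not shown to differ at 3 h (difference 0.01, SE 0.12), and this value changed sign with small changes of the fit. At 6 h the fall in MET∆14 cells was deeper by 0.47 (difference -0.47, SE 0.12, adjusted p = 0.00795) and at 12 h by 0.99 (difference -0.99, SE 0.12, adjusted p = 4.18e-05). The 12 h difference was -1.02 without MET∆14 12 h replicate 1 and -0.98 without replicate 2. Before HGF, TFPI was 5.02-fold lower in MET∆14 cells. About 1.01% of the exon length of TFPI lies opposite CALCRL-AS1.

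TFPI2 (ENSG00000105825, chr7:93885396-93890753, minus strand) encodes a secreted Kunitz-type inhibitor related to TFPI that acts on plasmin and other proteases. In MET∆14 cells it was counted at 57.5 and 54.6 CPM at 0 h, 126 and 104 at 3 h, 119 and 175 at 6 h and 94.2 and 140.3 at 12 h. Every library with HGF lay above both 0 h libraries, but the replicates of 6 and 12 h lay far apart and the times with HGF overlapped. TFPI2 rose by 1.03 at 3 h (log2, SE 0.18, edgeR adjusted p = 0.000664), 1.40 at 6 h (SE 0.18, adjusted p = 3.24e-05) and 1.06 at 12 h (SE 0.18, adjusted p = 0.000483). The 12 h rise was 1.32 without MET∆14 12 h replicate 1 and 0.74 without replicate 2, and both passed the test. The fall from 6 to 12 h of -0.34 (adjusted p = 0.193) passed only without replicate 2 (-0.66) among these fits.

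TFPI2 started higher in wt MET cells, at 129 and 125 CPM, and stood at 106 and 109.9 at 3 h, 106 and 112 at 6 h and 89.6 and 98.0 at 12 h. The differences from 0 h were -0.23, -0.22 and -0.44 (adjusted p = 0.419, 0.382 and 0.0716). All 6 libraries with HGF lay below both 0 h libraries. With wt MET libraries fitted alone, the differences passed the test at all 3 times (-0.21, -0.19 and -0.42, with adjusted p = 0.0319, 0.0338 and 0.000149). The 12 h difference was also called without MET∆14 6 h replicate 1 or 2 (both -0.45) and without MET∆14 12 h replicate 1 (-0.44) or 2 (-0.45). The responses of the lines differed by 1.26 at 3 h (SE 0.25, adjusted p = 0.00357), 1.62 at 6 h (SE 0.25, adjusted p = 0.000292) and 1.50 at 12 h (SE 0.25, adjusted p = 0.000857). The last was 1.76 without MET∆14 12 h replicate 1 and 1.19 without replicate 2. TFPI2 was 2.27-fold lower in MET∆14 cells before HGF. At 6 h both MET∆14 libraries lay above both wt MET libraries. About 1.80% of its exon length lies opposite GNGT1.

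THBD (ENSG00000178726, chr20:23045633-23049672, minus strand, 1 exon) encodes thrombomodulin, the receptor that turns thrombin into an activator of protein C. In MET∆14 cells it was counted at 144 and 143 CPM at 0 h, 330.2 and 277 at 3 h, 267 and 283 at 6 h and 103 and 107 at 12 h. The 3 h and 6 h libraries overlapped with each other and lay above 0 h, and the 12 h libraries lay below 0 h. THBD rose by 1.08 at 3 h (log2, SE 0.091, edgeR adjusted p = 4.53e-07) and by 0.94 at 6 h (SE 0.090, adjusted p = 1.04e-06). It then fell from 6 to 12 h by 1.39 log2 units (adjusted p = 1.58e-06) and ended below its starting level (-0.45, SE 0.092, adjusted p = 0.0013). The last value was -0.43 without MET∆14 12 h replicate 1 and -0.49 without replicate 2, and the step to 12 h was -1.37 and -1.42.

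THBD followed the opposite course in wt MET cells, at 21.8 and 22.6 CPM at 0 h, 12.95 and 11.7 at 3 h, 16.2 and 14.3 at 6 h and 24.4 and 22.3 at 12 h. It fell by 0.84 log2 units at 3 h (SE 0.12, edgeR adjusted p = 0.000149) and by 0.54 at 6 h (SE 0.11, adjusted p = 0.00185). At 12 h it overlapped with 0 h (0.08, SE 0.11, adjusted p = 0.612), after a rise from 6 to 12 h of 0.62 (adjusted p = 0.00198) that missed the threshold without wt MET 6 h replicate 2 (0.50, adjusted p = 0.0517). The difference between the lines' responses was 1.92 at 3 h (SE 0.15, adjusted p = 7.26e-07), 1.48 at 6 h (SE 0.14, adjusted p = 3.37e-06) and -0.53 at 12 h (SE 0.14, adjusted p = 0.0127). The 12 h difference was lost without wt MET 12 h replicate 1 (-0.45, adjusted p = 0.0803), and was -0.51 without MET∆14 12 h replicate 1 and -0.56 without replicate 2. THBD was 6.47-fold higher in MET∆14 cells before HGF.

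**Figure D2:**
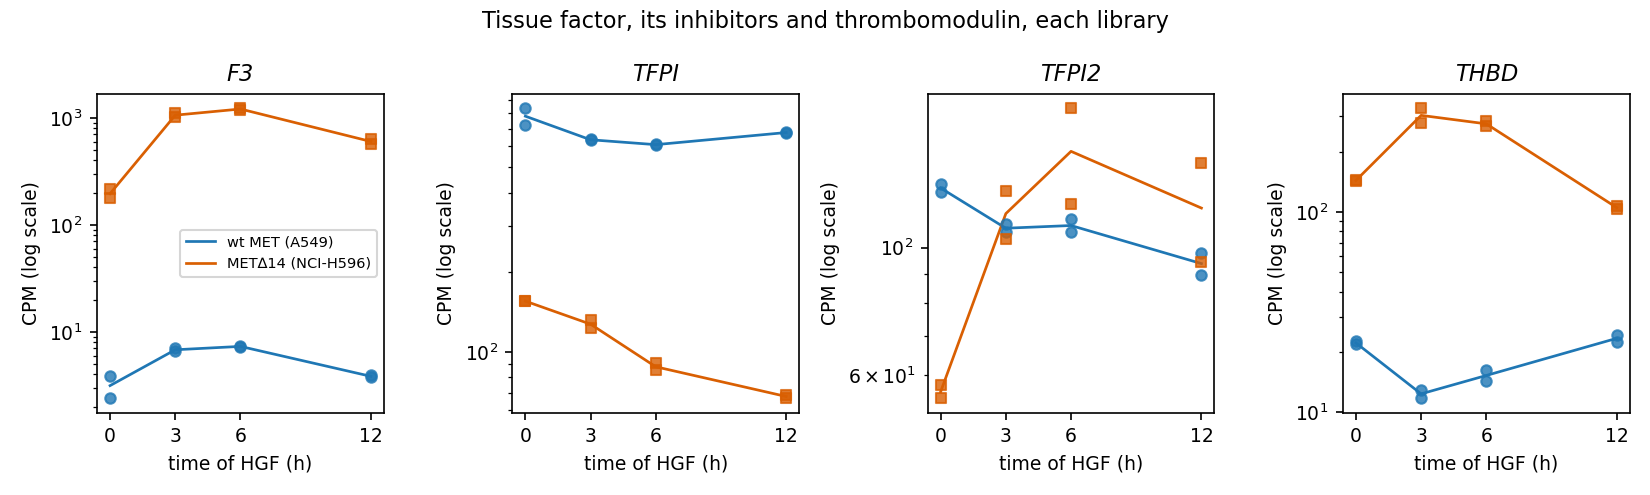
CPM (log scale) of F3, TFPI, TFPI2 and THBD against the time of HGF in hours, with each library as a point, wt MET cells as circles, MET∆14 cells as squares and lines through the mean of 2 libraries. F3 in MET∆14 cells climbed from 176 and 214 to 1182 and 1235 CPM at 6 h while TFPI went down from 156 and 155 to 68.8 and 66.7 CPM at 12 h.

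The ratio of F3 to TFPI within a library, after division by exon length, does not depend on the scaling of libraries. It was 0.0161 in wt MET cells at 0 h (mean of 2 libraries, 0.0134 and 0.0188), 0.0434 at 3 h, 0.0487 at 6 h and 0.0230 at 12 h. The MET∆14 cells had 5.10 at 0 h (4.59 and 5.60), 33.8 at 3 h, 55.9 at 6 h and 36.0 at 12 h. The ratio thus rose to 6 h and was lower at 12 h in both lines, on opposite sides of 1. In MET∆14 cells it was still far above its start at 12 h (36.0 against 5.10). The merged exons of TFPI span 11714 bases over all annotated transcripts, which may be longer than the transcripts present. The ratio would then be too high, by an amount that could differ between the lines, since the transcripts present were not tested. Values of F3 and TFPI are levels of RNA and say nothing of the protein on the cells.

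The ratio of F3 to THBD per kb of exon also rose in MET∆14 cells, from 1.90 at 0 h to 4.90, 6.15 and 8.01 at 3, 6 and 12 h. The last step came with the fall of THBD, which lost more than F3 after 6 h. In wt MET cells the same ratio was 0.197, 0.774, 0.673 and 0.230. The ratio of TFPI to TFPI2 per kb was 0.580, 0.233, 0.128 and 0.126 in MET∆14 cells and 1.28, 1.23, 1.16 and 1.51 in wt MET cells. These ratios rest on the lengths used. By counts not divided by length, TFPI exceeded TFPI2 in MET∆14 cells at 0 h (2.71 and 2.84) and 3 h (1.05 and 1.19), and lay below it at 6 and 12 h.

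**Figure D3:**
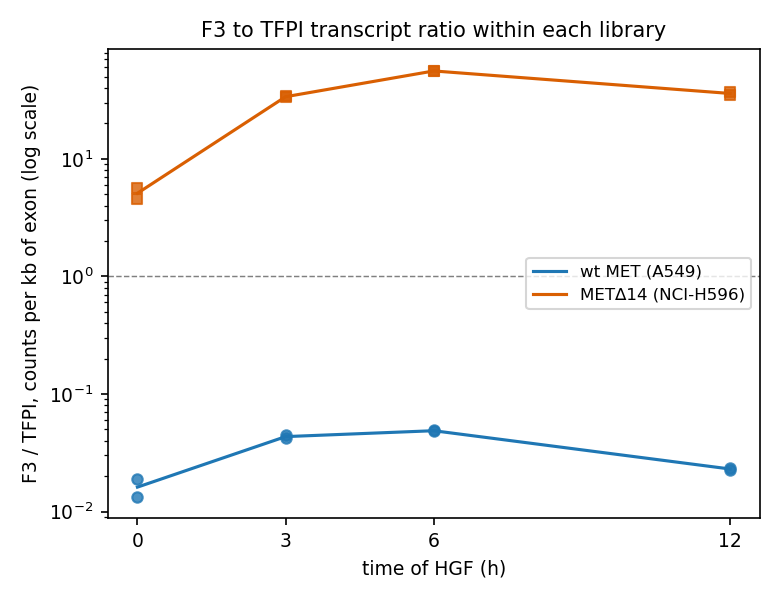
Ratio of F3 to TFPI counts per kb of exon in each library (log scale) against the time of HGF in hours, with wt MET cells as circles, MET∆14 cells as squares, lines through the mean of 2 libraries and a dashed line where both transcripts are equal. The ratio stayed under 0.05 in wt MET cells and went from 5.10 to 55.9 in MET∆14 cells.

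The fibrinogen genes FGB, FGA and FGG lie together on chromosome 4 (chr4:154563011-154612967, hg38), in 49957 bases with 0 other protein-coding genes between them. FGB (ENSG00000171564, beta chain) is on the plus strand, and FGA (ENSG00000171560, alpha chain) and FGG (ENSG00000171557, gamma chain) are on the minus strand. In wt MET cells, FGB was counted at 37.3 and 37.6 CPM at 0 h, 23.4 and 22.7 at 3 h, 17.2 and 22.0 at 6 h and 16.3 and 14.9 at 12 h. No condition overlapped with the one before it. FGB fell by 0.70 log2 units at 3 h (SE 0.14, edgeR adjusted p = 0.00507), by 0.93 at 6 h (SE 0.14, adjusted p = 0.0004) and by 1.26 at 12 h (SE 0.14, adjusted p = 6.97e-05). The 3 h call was lost without wt MET 3 h replicate 2 (-0.66, adjusted p = 0.0585).

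FGA and FGG were counted far less than FGB, with 7 to 40 and 9 to 25 counts per wt MET library. FGA stood at 2.89 and 1.77 CPM at 0 h, 1.74 and 1.54 at 3 h, 1.03 and 1.01 at 6 h and 0.333 and 0.606 at 12 h. It went down at each time without overlap and fell by 1.19 log2 units at 6 h (SE 0.40, edgeR adjusted p = 0.0398). At 12 h the change was -2.34 (SE 0.44, adjusted p = 0.00198). FGG stood at 1.81 and 1.34, 1.27 and 0.727, 0.666 and 0.606, and 0.715 and 0.673 CPM at the 4 times. It was called at 6 h (-1.30, SE 0.43, adjusted p = 0.0387) and stood just outside the threshold at 12 h (-1.17, SE 0.42, adjusted p = 0.0501), where leaving out MET∆14 12 h replicate 1 or replicate 2 brought it inside (both -1.17).

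The 6 h calls of FGA and FGG were each lost in 10 of 16 fits that left out 1 library, with values from -1.47 to -0.79 for FGA and from -1.47 to -1.07 for FGG. FGA kept its call without wt MET 0 h replicate 2, MET∆14 6 h replicate 2 or any 1 MET∆14 library of 3 or 12 h. FGG kept it without wt MET 3 h replicate 2 or the same MET∆14 libraries. The 12 h fall of FGA was called in all 16 fits (-2.78 to -1.94).

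Per kb of exon, FGB was 15.3 times FGA at 0 h (mean of 2 libraries). The FGB to FGA ratio was 12.7, 17.3 and 33.0 at 3, 6 and 12 h, with 22.1 and 43.9 in the 12 h libraries, where FGA had 7 and 9 counts. The FGB to FGG ratio was 20.5, 25.6 and 18.5 at these times. The 3 chains were thus far from equal in transcript level in these cells.

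FGA, FGB and FGG had 0 counts in MET∆14 cells, in all 8 libraries. A limit of 3 counts per library corresponds to 0.129 to 0.278 CPM. Against that limit, FGB was at least 218-fold lower in MET∆14 cells before HGF, FGA at least 13.5-fold and FGG at least 9.15-fold. These bounds cover counting error in MET∆14 cells only. They take the mean of the 2 wt MET libraries at 0 h as it stands. That mean rests on 40 and 25 counts for FGA and on 25 and 19 for FGG. The neighbouring gene PLRG1, 12611 bases from the cluster, was counted in both lines, at 97.7 to 119 CPM in wt MET cells and 59.8 to 80.4 CPM in MET∆14 cells. LRAT, 13978 bases away on the other side, was at most 0.202 CPM in wt MET cells and 0.447 to 0.927 CPM in MET∆14 cells. LRAT had 8 to 15 counts per MET∆14 library. Further out, DCHS2 had 0 CPM in wt MET cells and 6 to 23 counts in MET∆14 libraries. RBM46, 168246 bases away on the side of LRAT, had 0 CPM in wt MET cells and 0 to 2 counts in MET∆14 libraries. The 0 counts were thus not shared by the nearest gene on either side, and their cause was not tested.

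The 250 bases before the RefSeq starts of FGB (GRCh38.p14, chr4:154562730-154562979, plus strand, the more upstream of 2 starts) and FGA (chr4:154590743-154590992, minus strand) are shown because these chains fell in wt MET cells and were at 0 counts in MET∆14 cells. Capitals mark matches to 2 motifs known from liver and acute-phase genes, searched on both strands. The motifs were CTGGGAA, the core of the interleukin-6 response element, and TTGCNNAA, bound by C/EBP factors.
FGB: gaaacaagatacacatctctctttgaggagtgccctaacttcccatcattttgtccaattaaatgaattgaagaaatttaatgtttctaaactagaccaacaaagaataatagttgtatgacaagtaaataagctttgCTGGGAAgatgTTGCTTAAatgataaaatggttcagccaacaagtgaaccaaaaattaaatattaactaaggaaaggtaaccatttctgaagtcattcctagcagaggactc
FGA: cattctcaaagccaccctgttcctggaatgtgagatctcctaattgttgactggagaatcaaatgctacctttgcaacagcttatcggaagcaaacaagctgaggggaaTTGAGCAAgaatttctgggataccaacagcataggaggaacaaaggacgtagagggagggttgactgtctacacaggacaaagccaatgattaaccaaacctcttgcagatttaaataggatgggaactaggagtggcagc
The FGB window held CTGGGAA at 112 to 106 bases before the start and a C/EBP match at 101 to 94 bases. FGA held a C/EBP match on the other strand at 141 to 134 bases. In the window of FGG, CTGGGAA was found at 161 to 155 bases. Over all 27326 windows, 9.33% held CTGGGAA and 9.12% the C/EBP motif, so that single matches are common. The windows of F3, TFPI, TFPI2 and SERPINA1 held 0 matches to these motifs. For SERPINA1, as for FGB, only the more upstream of 2 starts was searched.

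C3 (ENSG00000125730, chr19:6677704-6730562, minus strand) encodes the component on which all pathways of complement converge. In wt MET cells it was counted at 5.79 and 6.43 CPM at 0 h, 4.54 and 4.53 at 3 h, 3.75 and 2.42 at 6 h and 1.57 and 1.28 at 12 h, from 19 to 91 counts. Each time lay below the one before it. The difference from 0 h was -0.43 at 3 h (SE 0.20, edgeR adjusted p = 0.151), and C3 fell by 0.97 log2 units at 6 h (SE 0.20, adjusted p = 0.00196). At 12 h the change was -2.07 (SE 0.23, adjusted p = 1.33e-05), a 4.21-fold fall. The step from 6 to 12 h (-1.10, adjusted p = 0.0113) was lost without wt MET 6 h replicate 1 (-0.77) or wt MET 12 h replicate 2 (-1.01).

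C3 was far higher in MET∆14 cells, at 150.1 and 143 CPM at 0 h, 145 and 138 at 3 h, 89.2 and 114 at 6 h and 103 and 104 at 12 h. The libraries of 0 and 3 h overlapped, as did those of 6 and 12 h, and the later pair of times lay below the earlier one. C3 fell by 0.53 log2 units at 6 h (SE 0.11, edgeR adjusted p = 0.00139) and by 0.50 at 12 h (SE 0.11, adjusted p = 0.00273), with 0.03 between these times (adjusted p = 0.892). The 3 to 6 h step (-0.47, adjusted p = 0.0148) was lost without MET∆14 3 h replicate 1 (-0.45) or replicate 2 (-0.52), or without MET∆14 6 h replicate 1 (-0.32). The 12 h value was -0.49 without MET∆14 12 h replicate 1 and -0.52 without replicate 2.

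The responses of C3 differed between the lines at 12 h by 1.57 (SE 0.26, adjusted p = 0.000508; 1.58 and 1.56 without MET∆14 12 h replicate 1 and 2) and were not shown to differ at 3 h (0.38, SE 0.23, adjusted p = 0.299) or 6 h (0.44, SE 0.23, adjusted p = 0.172). Before HGF, C3 was 24.0-fold higher in MET∆14 cells (147 ± 4.75 against 6.11 ± 0.456 CPM, mean ± SD). Of its exon length, 11.7% overlaps with another annotated gene on the same strand, so that its counts are uncertain to that extent.

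SERPINA1 (ENSG00000197249, chr14:94376747-94390693, minus strand) encodes alpha-1-antitrypsin, the main inhibitor of neutrophil elastase. In MET∆14 cells it was the least abundant per kb of the 6 genes counted there, at 4.11 and 3.48 CPM at 0 h, 2.93 and 2.38 at 3 h, 2.47 and 3.51 at 6 h and 2.08 and 2.41 at 12 h. The libraries of 0 and 6 h overlapped, and those of 12 h lay below 0 h. The 12 h value of -0.76 passed the test (SE 0.27, edgeR adjusted p = 0.0339), which was lost without MET∆14 0 h replicate 1 (-0.65) or replicate 2 (-0.88), or without MET∆14 12 h replicate 1 (-0.65), and kept without MET∆14 12 h replicate 2 (-0.87). Values at 3 h (-0.52, adjusted p = 0.143) and 6 h (-0.31, adjusted p = 0.339) did not pass.

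In wt MET cells SERPINA1 had 1 to 6 counts per library. With 2 counts over both 6 h libraries against 11 over both 0 h libraries, the ratio of 6 h to 0 h was 0.162 (95% exact interval 0.0175 to 0.742, for counting error only). The test called this fall (edgeR adjusted p = 0.0188). The line difference at 6 h was called too (2.17, SE 0.77, adjusted p = 0.0477). The fall was lost without wt MET 0 h replicate 1 or either wt MET 6 h library. The difference was lost in 13 of 16 fits that left out 1 library, and kept without MET∆14 6 h replicate 1 or either MET∆14 12 h library (1.84 to 2.35 over all 16). At this depth a change of SERPINA1 in wt MET cells was barely detectable.

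**Figure D4:**
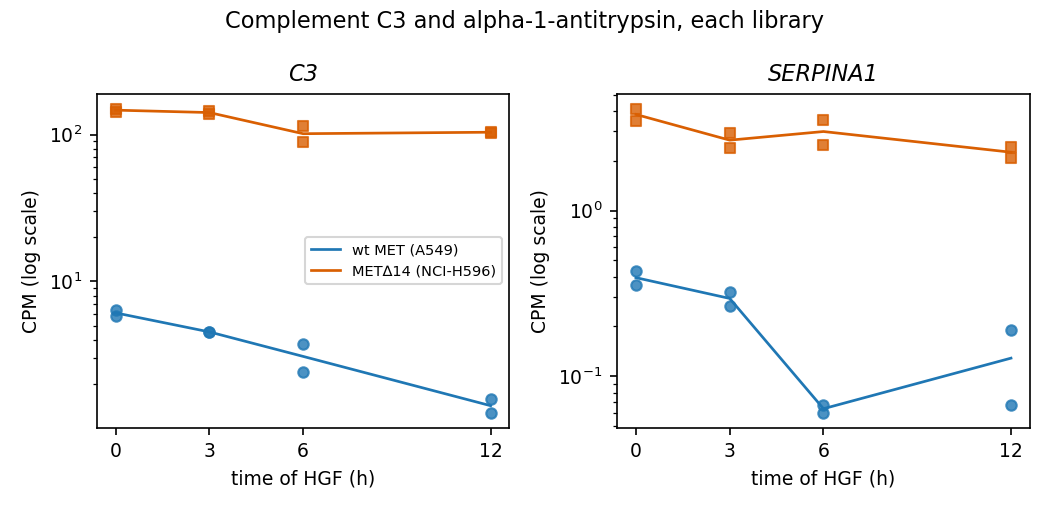
CPM (log scale) of C3 and SERPINA1 against the time of HGF in hours, with each library as a point, wt MET cells as circles, MET∆14 cells as squares and lines through the mean of 2 libraries. C3 went from 5.79 and 6.43 to 1.57 and 1.28 CPM in wt MET cells and from 150.1 and 143 to 103 and 104 CPM in MET∆14 cells.

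The steps between successive times add to the account of the course. From 3 to 6 h, 0 of 9 genes were called in wt MET cells (3.1% of all genes; edgeR gave 3 of the 9, THBD, C3 and SERPINA1, an unadjusted p under 0.05, and DESeq2 called 0) and 2 of 6 in MET∆14 cells, TFPI and C3 (9.77%). From 6 to 12 h, 3 of 9 were called in wt MET cells, F3, THBD and C3 (11.6%), and 3 of 6 in MET∆14 cells, F3, TFPI and THBD (18.6%).

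Other genes of the same pathways were taken from 6 lists, none of which holds any of the 9. Counts and medians cover the tested genes with over 3 counts in some library of the groups compared, and the medians of all genes tested lay between -0.05 and 0 log2 units in every comparison with 0 h. Of all genes tested, 10.3%, 16.4% and 16.9% rose and 7.16%, 17.8% and 18.2% fell in wt MET cells at 3, 6 and 12 h, and 15.5%, 21.6% and 18.3% rose and 16.1%, 22.5% and 20.1% fell in MET∆14 cells. The counts of these short lists are to be read against those shares. Of 11 coagulation factors, 4 were tested. In MET∆14 cells 0, 1 and 1 of them were called at 3, 6 and 12 h, all lower, with a median log2 fold change of -0.98 at 12 h over 3 genes. The wt MET cells gave 0, 2 and 1 calls, all lower, with a median of -0.66 at 12 h over 4 genes. F8, which encodes factor VIII, was the gene named by rule, and fell by 1.02 log2 units in MET∆14 cells at 12 h (SE 0.17, edgeR adjusted p = 0.000233), from 15.3 to 7.53 CPM. Its value was -1.02 without MET∆14 12 h replicate 1 and -1.03 without replicate 2, and -0.04 in wt MET cells (adjusted p = 0.919), and the lines differed in response over the 3 times (adjusted p = 0.0295). The list gave 1 call, lower, without each of these libraries in turn, with a median of -1.02 and -0.86.

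Of 12 anticoagulants and protease-activated receptors, 7 were tested, 6 of them above the limit in wt MET cells. At 3, 6 and 12 h, 3, 4 and 4 rose and 0, 0 and 1 fell in MET∆14 cells (median 0.05, 0.37 and 0.42 log2 units, with 15.5%, 21.6% and 18.3% of all genes higher), and 0, 2 and 1 rose and 1, 3 and 3 fell in wt MET cells (median -0.22, -0.32 and -0.24). F2RL1, a protease-activated receptor that the complex of tissue factor and factor VIIa can cut, rose by 1.20 at 3 h in MET∆14 cells (SE 0.11, edgeR adjusted p = 1.32e-06), from 49.4 to 114 CPM. Its value in wt MET cells at 3 h was 0.05 (adjusted p = 0.813), and the lines differed in response over the 3 times (adjusted p = 0.000143). SERPINE2, which encodes the thrombin inhibitor protease nexin 1, rose by 0.94 at 6 h in MET∆14 cells (SE 0.095, adjusted p = 1.69e-06) and by 0.33 in wt MET cells (SE 0.089, adjusted p = 0.00951), and the lines differed in response over the 3 times (adjusted p = 0.0115). At 12 h the list had 4 higher and 0 lower without MET∆14 12 h replicate 1 (median 0.34) and 2 higher and 1 lower without replicate 2 (median 0.19).

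Of 20 complement components, 12 were tested. MET∆14 cells had 0 higher and 2, 7 and 5 lower at 3, 6 and 12 h (median -0.34, -0.69 and -0.73 over 11, 11 and 12 genes, with 16.1%, 22.5% and 20.1% of all genes lower). The wt MET cells had 2, 2 and 1 higher and 2, 1 and 3 lower (median -0.31, -0.26 and -0.22 over 9, 10 and 10 genes). A difference between the lines' responses was called for 1 of 8, 2 of 9 and 2 of 10 genes at these times (17.4%, 30.2% and 24.0% of all genes). C5, which encodes the component cleaved after C3, fell at 12 h by 1.74 log2 units in MET∆14 cells (SE 0.24, edgeR adjusted p = 6.21e-05) and by 1.37 in wt MET cells (SE 0.20, adjusted p = 0.000114). C1S, which encodes a serine protease of the first component, fell at 12 h by 0.88 in MET∆14 cells (SE 0.15, adjusted p = 0.000347) and by 1.45 in wt MET cells (SE 0.27, adjusted p = 0.000999). A difference between the lines in response over the 3 times was not shown for C5 (edgeR adjusted p = 0.290) or C1S (edgeR adjusted p = 0.437). Without MET∆14 12 h replicate 1, C5 was at -1.91, C1S at -0.66 and 5 of the list were lower (median -0.74). Without replicate 2, they were at -1.64 and -1.13, and 4 were lower (median -0.76).

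Of 13 complement regulators and receptors, 9 were tested, 7 of them above the limit in wt MET cells. MET∆14 cells had 1, 2 and 1 higher and 1, 2 and 5 lower (median -0.21, -0.13 and -0.51), and wt MET cells had 1 higher at each time and 0, 3 and 4 lower (median -0.23, -0.29 and -0.24). CD55 and CD59, which protect cells from complement, were the genes named by rule. CD55 rose at 6 h in both lines, by 0.79 in wt MET cells (SE 0.10, edgeR adjusted p = 3.3e-05) and by 0.65 in MET∆14 cells (SE 0.10, adjusted p = 9.84e-05). Its responses differed between the lines over the 3 times (adjusted p = 0.00107), with 0.62 in wt MET cells at 12 h (adjusted p = 0.000278) and -0.09 in MET∆14 cells (adjusted p = 0.525). That last value was 0.079 without MET∆14 12 h replicate 1 and -0.28 without replicate 2, where it was called (adjusted p = 0.00799). At 12 h the list had 1 higher and 4 lower without replicate 1 (median -0.44), and 0 higher and 6 lower without replicate 2 (median -0.59). CD59 rose by 0.83 at 6 h in MET∆14 cells (SE 0.16, adjusted p = 0.00071), against 0.22 in wt MET cells (adjusted p = 0.312), and a difference between the lines in its response was not shown (adjusted p = 0.184).

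Of 26 acute-phase and liver-secreted proteins, 10 were tested, 8 of them above the limit in wt MET and 6 in MET∆14 cells. At 3, 6 and 12 h, 0 rose in either line, while 0, 2 and 3 fell in wt MET cells (median -0.68, -0.75 and -1.08) and 0, 1 and 3 in MET∆14 cells (median -0.06, -0.66 and -1.16). CP, which encodes ceruloplasmin, fell at 12 h by 1.44 log2 units in wt MET cells (SE 0.23, edgeR adjusted p = 0.000211) and by 1.04 in MET∆14 cells (SE 0.20, adjusted p = 0.000794). Without MET∆14 12 h replicate 1, CP was at -0.95 and 1 of the list fell (median -1.19), and without replicate 2 it was at -1.13 and 4 fell (median -1.07).

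Of 10 liver-enriched and acute-phase transcription factors, 8 were tested, 6 of them above the limit in MET∆14 cells. The wt MET cells had 3, 3 and 0 lower and 0 higher (median -0.47, -0.53 and 0.01), and MET∆14 cells 2, 2 and 1 higher and 1, 2 and 2 lower (median 0.19, -0.50 and -0.64). CEBPD, a factor of the C/EBP family, rose by 0.71 in MET∆14 cells at 3 h (SE 0.16, edgeR adjusted p = 0.00418) and lay 1.06 log2 units below 0 h at 12 h (-1.06, SE 0.18, adjusted p = 0.000278). The 12 h value was -0.71 without MET∆14 12 h replicate 1 and -1.46 without replicate 2. The list then had 1 higher and 2 lower (median -0.27), and 1 higher and 4 lower (median -0.84).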

How the data were processed

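RNA of 16 libraries was analysed, 2 for each of 4 times in 2 lines, as grouped by their titles. The authors deposited a table of whole-number counts per gene. The submitters' processing notes name STAR 2.5.0, RSEM 1.3.2 and hg38 without their roles, so that the deposited counts may be rounded RSEM estimates. The annotation behind the counts and their use of strand are not given in the sources used here. Columns of the wt MET line carry a slightly different line name and were matched by the rest of the name, and 0 columns were left unused. Of 42351 genes, 19306 had no count.

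Genes passed edgeR's filterByExpr (minimum count 10, total 15). Libraries were scaled by TMM, and CPM use the effective library size. A quasi-likelihood model (R 4.3.3, edgeR 4.0.16, limma 3.58.1, robust) over all 16 libraries gave each comparison, with Benjamini-Hochberg adjustment over 15067 genes and a threshold of 0.05. The common biological coefficient of variation was 0.0868. The model was tested on simulated data. The study's methods describe biological duplicates, so that n = 2 sets the precision. A limit of 3 counts stood for a count of 0, and intervals on counts cover counting error only. Deviations of same-numbered libraries correlated at -0.159 to 0.035 over 12 pairs of conditions within a line, so that replicate numbers were not taken as pairs.

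Exon lengths and positions came from GENCODE 44 and promoter windows from RefSeq. Tables used Python 3.11.15, pandas 2.3.3, scipy 1.17.1 and matplotlib 3.10.9. The 9 genes, the pathway lists and the markers were chosen with earlier results of these data known. From each list, the 2 called genes with the largest change with mean log2 CPM 3 or higher in that line were named, or 1 where only 1 qualified, and 1 named gene is not reported here. Alternatives were DESeq2 1.42.0, its size factors in edgeR, a minimum count of 1, a replicate block, a minimum of 10 counts throughout, each line alone, leaving out each library, and Spearman correlations.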

Additional observations from a re-analysis of the deposited data

Results flagged for a closer look

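The responses of the lines to HGF differed for several of the genes by tests of the interaction of line and time. All p-values here are edgeR quasi-likelihood p-values adjusted over all genes tested. For F3, the adjusted p of the difference was 0.00142 at 3 h, 0.000393 at 6 h, 0.00129 at 12 h and 0.00121 over the times together. F3 rose in both lines at 3 and 6 h, by more in MET∆14 cells. THBD gave 7.26e-07, 3.37e-06, 0.0127 and 6.9e-08, with opposite directions at 3 and 6 h. TFPI2 gave 0.00357, 0.000292, 0.000857 and 0.00070, with a rise called in MET∆14 cells only and in every fit that left out 1 library.

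TFPI fell further in MET∆14 cells at 6 h (adjusted p = 0.00795) and 12 h (adjusted p = 4.18e-05), and over the times together (adjusted p = 3.71e-05). C3 fell further in wt MET cells at 12 h (adjusted p = 0.000508) and over the times together (adjusted p = 0.00168). The difference of SERPINA1 at 6 h (adjusted p = 0.0477) rests on 2 counts in wt MET cells at 6 h and was lost in 13 of 16 fits without 1 library. Conditions of 2 replicates were not searched for single outlying libraries.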

How the results depend on the processing

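Of the 9 genes, 8 were called in wt MET cells at 6 h. With at least 10 counts in every library, which removes FGA, FGB, FGG and SERPINA1, 4 were called, and DESeq2 called 5. At 12 h, 3 were called, against 1 with at least 10 counts and 6 with each line alone. That filter also gave 5 in place of 9 between the lines at 0 h, where the larger number counts fibrinogen and SERPINA1. For the effect of time over both lines it gave 3 in place of 5, where the larger number counts FGA and FGB. Leaving out 1 library gave 2 to 4 calls in wt MET cells at 3 h, 4 to 8 at 6 h and 3 to 6 at 12 h, and 1 to 2 in MET∆14 cells from 3 to 6 h.

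With a replicate block, 7 genes were called in wt MET cells at 6 h (FGA lost, adjusted p = 0.0571) and 4 for the difference between lines at 6 h (SERPINA1 lost, adjusted p = 0.056), and it changed no other call. The numbers are not known to pair the libraries.

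Values that changed sign passed no test. Leaving out 1 library gave -0.022 to 0.68 for F3 in wt MET cells at 12 h, -0.025 to 0.052 for TFPI2 in wt MET cells from 3 to 6 h, -0.10 to 0.41 for SERPINA1 in MET∆14 cells from 3 to 6 h and -0.13 to 0.22 for C3 in MET∆14 cells from 6 to 12 h. The difference between lines at 3 h was -0.13 to 0.11 for TFPI and -0.27 to 0.028 for SERPINA1, and for TFPI it was -0.010 with no filter and -0.027 with at least 10 counts.

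DESeq2 lost FGA, FGG and SERPINA1 in wt MET cells at 6 h, SERPINA1 in MET∆14 cells at 12 h (adjusted p = 0.192) and its difference at 6 h. No filter lost TFPI in wt MET cells at 3 h (adjusted p = 0.0646), FGG there at 6 h (0.0876), SERPINA1 in MET∆14 cells at 12 h (0.0620) and its difference at 6 h (0.0832). It gained TFPI2 in wt MET cells at 12 h (0.000369) and in MET∆14 cells from 3 to 6 h (0.00895) and 6 to 12 h (0.00937). Each line alone lost TFPI at 3 h (0.0633) and SERPINA1 at 12 h (0.0547) in MET∆14 cells. It gained FGG (0.0260) and TFPI (0.0412) at 12 h, and TFPI2 at 3, 6 and 12 h (0.0319, 0.0338 and 0.000149) and from 6 to 12 h (0.0259), in wt MET cells. Counts of all genes called moved by over 1.5 times between adjacent times. From 3 to 6 h, wt MET cells gave 467 (860 with no filter, 951 with each line alone, 96 to 1264 without 1 library) and MET∆14 cells 1472 (695 alone, 459 to 3100). From 6 to 12 h, they gave 1743 (2801 alone, 686 to 3182) and 2806 (1422 alone, 852 to 6434). Against 0 h, leaving out 1 library gave 1363 to 4141 for 2629 at 3 h, 3268 to 6642 for 5153 at 6 h and 3046 to 6868 for 5284 at 12 h in wt MET cells. In MET∆14 cells it gave 3029 to 6380 for 4769 at 3 h and 3722 to 7157 for 5774 at 12 h, and for the difference at 3 h 1743 to 4132 for 2621. The causes were not tested. Depth limits FGA, FGG and SERPINA1 most, since they had 40 or fewer counts per library in wt MET cells.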

Other observations

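Genes whose course was nearest to that of each gene were found by Pearson correlation over the 8 condition means, centred within each line, among 9638 expressed genes. These are descriptions, since the points share libraries and the best of many candidates was taken. F3 was nearest to ZYX, which encodes zyxin of focal adhesions (r = 0.990), and to HSPH1, a heat shock protein gene (r = 0.989). TFPI was nearest to PPL (r = 0.992) and DHX40 (r = 0.989), TFPI2 to EFHD2 (r = 0.993) and MYO1C (r = 0.990), and THBD to ACSL3 (r = 0.980) and DKK1 (r = 0.977). C3 was nearest to MED16 (r = 0.995) and CUEDC1 (r = 0.993), and SERPINA1 to PRICKLE3 (r = 0.979) and MSLN (r = 0.972). The fibrinogen chains vary in the 4 wt MET conditions alone. FGA was nearest to RRM2 (r = 0.987) and RABEP2 (r = 0.984), FGB to MGAT4B (r = 0.991) and TNNT1 (r = 0.983), and FGG to AKIP1 (r = 0.986) and DNAJC19 (r = 0.980). By Spearman correlation, ZYX and MED16 stayed first for F3 and C3 (both 1.0), and ACSL3, RABEP2 and TNNT1 were exceeded by 0 candidates. The order changed most for FGB, where MGAT4B (0.685) was exceeded by 940 candidates, for FGA, where RRM2 was exceeded by 321, and for FGG, where both genes were exceeded by 308. Among the 9 genes, the course of F3 correlated with TFPI2 at 0.79 and with TFPI at -0.54.

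Some further genes expressed in liver were looked up after their values were seen. HNF4A had 71 to 144 counts per library in wt MET and 2 to 8 in MET∆14 cells, and FOXA2 510 to 1409 and 17 to 64. FGL1, which encodes a secreted relative of fibrinogen, had 8 to 57 counts in wt MET and at most 1 in MET∆14 libraries. APOH had 15 to 33 and 0. Genes of the liver did not all go this way. At 0 h, CP was higher in MET∆14 cells by 0.78 log2 units (edgeR adjusted p = 0.00179), C3 was higher as well, and SERPINA1 had more counts there. Of the 10 acute-phase and liver-secreted genes tested, 4 were higher and 5 lower in MET∆14 cells at 0 h. However, 8 of the 10 were above the limit of counts in wt MET cells, 6 in MET∆14 cells and only 4 in both. Genes above it in 1 line alone passed the filter through that line, which largely set their direction, as for fibrinogen and SERPINA1. Among all genes tested, 40.6% were higher and 39.6% lower. For that reason the split of the list describes these genes and cannot be read against that of all genes.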
